A study of Mus musculus with 2 samples.

Results

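Protein tyrosine phosphatases remove phosphate from tyrosine and so oppose the tyrosine kinases of receptor signalling. Most receptor-type members span the membrane, and non-receptor members work inside the cell. The dual-specificity class also acts on serine and threonine. Many of its Dusp members switch off MAP kinases, while the Ptp4a (PRL) members are small prenylated enzymes. In T lineage cells several phosphatases set the threshold of antigen receptor and cytokine signalling. Among them are CD45 (Ptprc), SHP-1 (Ptpn6) and the PEST-family enzyme Ptpn22. The members were all genes on the array whose annotated symbol begins with Ptpn and a digit, Ptpr and a letter, Dusp and a digit, or Ptp4a. This rule found 41 of the 10208 named genes, each with 1 probe: 12 receptor-type, 13 non-receptor and 15 dual-specificity genes (12 Dusp, 3 Ptp4a), plus Ptprcap. RefSeq holds 65 protein-coding genes that match the rule, so not all of them have a named probe here. Ptprcap is not a phosphatase but a membrane protein that associates with CD45, and it is given apart, which leaves 40 phosphatase genes.

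Both samples were cells of the mouse line 1F9, which came from E2A-deficient thymomas and is E2A -/-, so it lacks the E2A proteins E12 and E47. The sample titled +ER47TX received a retrovirus with E47 fused to the estrogen receptor (E47-ER), a bHLH transcription factor that 4-hydroxytamoxifen switches on. The control titled +bHLHERTX received a truncated fusion that keeps the bHLH region and lacks the N-terminal activation domain (bHLH-ER). Both viruses also encoded human CD25, by which infected cells were selected on magnetic beads, and both cultures had 4-hydroxytamoxifen for 6 hours, beginning 1 day post-infection. RNA of each culture was read on 1 single-colour (Cy3) oligonucleotide array, so there is no replicate for any difference, and construct, culture and array cannot be told apart. There was no array of untreated or uninfected cells. The question was which genes respond to E47 in cells without E2A.

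Values are scaled intensities as deposited, with the control (bHLH-ER) value first and the E47-ER value second. A difference is E47-ER minus control in log2 intensity, after centring each array on its median over the probes positive on both arrays. A gene was called measured when its mean centred log2 level reached the median of these probes, an intensity of about 1.03. A 2-fold difference or more was called. No named probe carried the symbol Tcf3, the gene that encodes E47. The probe of Esr1, the estrogen receptor alpha gene, read 7.87 and 17.3, which is 2.22-fold brighter with E47-ER; both viruses carry an estrogen receptor part, and whether this probe detects it was not tested, so equal levels of the fusions were not shown. As a check of the cell type, all 14 T lineage markers with a probe were measured on these arrays. Of the other marker lists, 4 of 7 B cell, 2 of 9 myeloid, none of 7 NK and cytotoxic, 1 of 4 erythroid and 3 of 5 fibroblast and packaging cell markers with a probe were measured, the last including Thy1, which is also on the T lineage list. Of these markers, Ptcra (4.25-fold), Rag1 (2.02-fold) and Vpreb1 (2.06-fold) were called higher with E47-ER and none lower. Gata3, at 9.92 and 4.97, was 1.97-fold lower, just short of a call (named after its values were seen). Of all measured genes, 1.35% were called higher and 0.270% lower.

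The transcript of Ptpre, a receptor-type phosphatase, was the one phosphatase transcript called between the constructs. It was higher with E47-ER, and the other 17 measured phosphatase genes lay within 2-fold, none called lower. Across all 5563 measured genes, 1.35% were called higher and 0.270% lower, and 1.62% in either direction. Of the 40 phosphatase genes, 18 were measured, 21 were under the level limit and 1 had no value. Among all 9942 named genes with a positive value on both arrays, 56.0% were measured.

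Ptpre (Entrez gene 19267) encodes protein tyrosine phosphatase epsilon, which is made as a membrane-spanning and as a cytosolic form from different start sites. Which of these forms the probe detects was not determined. Its intensity was 1.03 in the control and 5.91 with E47-ER. The control value, at -0.02 after centring, lay at the level limit, so Ptpre was called measured through its value on the E47-ER array. Without detection calls, the control value is not shown to be above background. Taken at face value, the difference was 2.53 on the log2 scale, or 5.78-fold, and 2 of the 5563 measured genes had a larger one; an offset of 0.5 added to both intensities lowered it to 2.07. Different probes of one gene on these arrays differed with a pooled SD of 0.20 (95% interval 0.17 to 0.25, 55 genes), and among probes of like level the robust SD of the difference was 0.28. The first covers error within the arrays. The second is taken over probes of different genes, so it also holds real differences between the cultures compared. Neither measures the spread between replicate cultures. Whether a difference in bulk RNA comes from more cells with a transcript or from more transcript per cell cannot be told apart. Ptpre is also expressed in myeloid cells. Of the 9 myeloid markers with a probe, 2 were measured. Itgam read 0.866 and 1.44 (1.68-fold, brighter with E47-ER as Ptpre was) and was likewise called measured through its E47-ER value. Spi1 read 5.43 and 4.63. The 8 markers with a positive value on both arrays summed to 7.58 and 7.26, most of it Spi1. Lyz2 (0.0456 and 0.0562) and Mpo (0.0552 and 0.106) were under the limit on both arrays. The part of myeloid transcripts in the Ptpre difference was not tested.

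**Figure D1:**
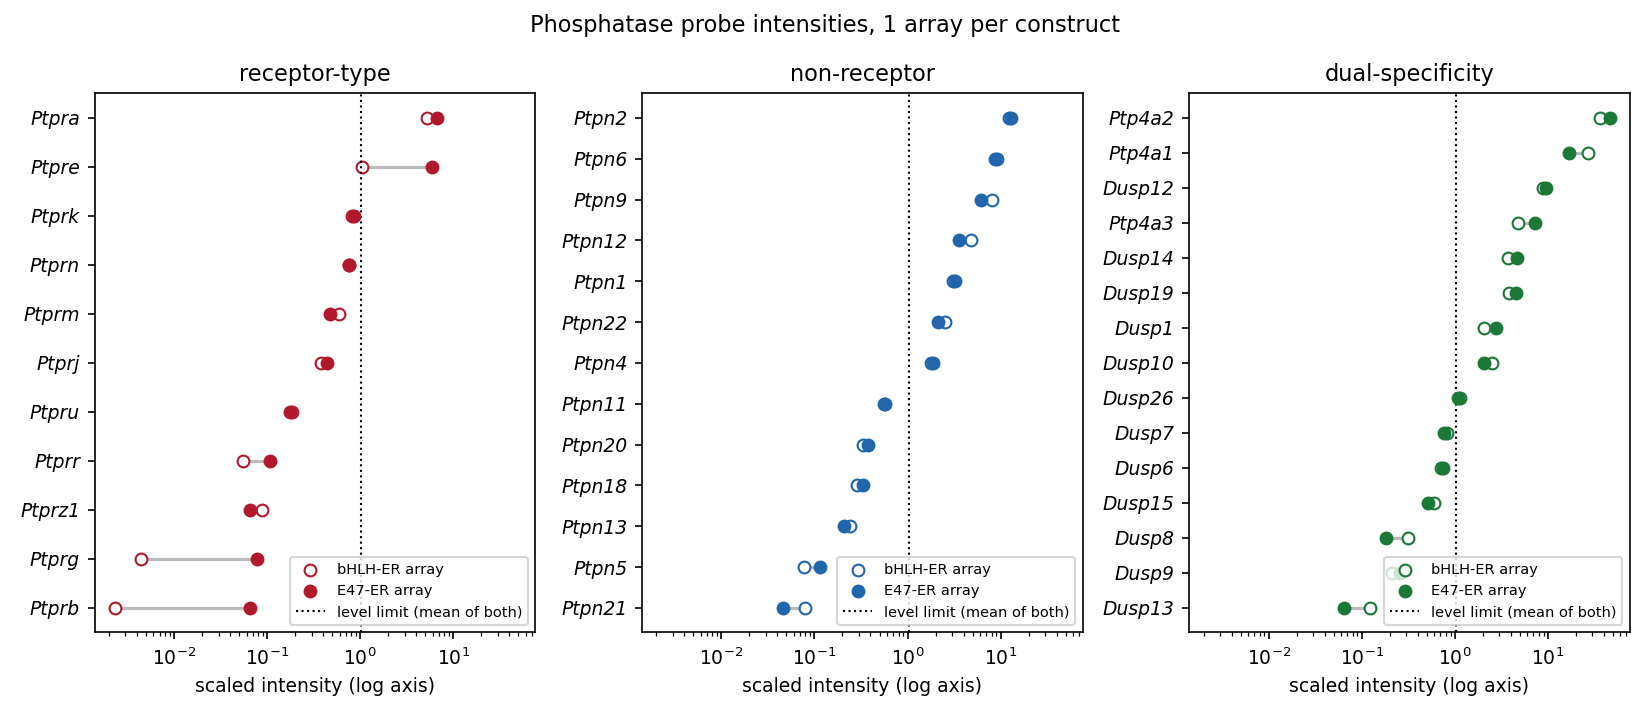
Scaled intensity (log axis) of each phosphatase probe with a value, by class; open points are the bHLH-ER array, filled points the E47-ER array, and the dotted line is the level limit of 1.03 for the mean of both arrays. Ptpre goes from 1.03 to 5.91, while most other probes near or above the limit have nearly overlapping points.

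E proteins bind the E-box, whose core letters are CANNTG, and the sequence before the start sites of Ptpre is therefore shown. The windows are those of RefSeq on GRCm38.p6, each covering 250 bases before to 50 bases after an annotated start, all on the plus strand of chromosome 7 and in the order of their positions, chr7:135537574-135537873, chr7:135593231-135593530 and chr7:135605578-135605877. Capitals mark matches to CANNTG, which reads as CANNTG on the other strand too.
Ptpre window 1: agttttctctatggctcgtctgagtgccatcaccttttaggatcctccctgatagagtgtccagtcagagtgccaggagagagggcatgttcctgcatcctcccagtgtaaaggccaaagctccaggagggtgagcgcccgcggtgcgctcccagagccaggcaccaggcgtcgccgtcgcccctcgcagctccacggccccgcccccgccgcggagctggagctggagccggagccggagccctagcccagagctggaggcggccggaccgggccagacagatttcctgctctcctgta
Ptpre window 2: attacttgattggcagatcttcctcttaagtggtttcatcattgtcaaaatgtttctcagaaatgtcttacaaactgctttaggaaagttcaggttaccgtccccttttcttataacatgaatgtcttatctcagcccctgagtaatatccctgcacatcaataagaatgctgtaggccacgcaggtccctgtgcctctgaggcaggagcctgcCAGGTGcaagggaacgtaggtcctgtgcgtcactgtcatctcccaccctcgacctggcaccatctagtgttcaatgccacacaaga
Ptpre window 3: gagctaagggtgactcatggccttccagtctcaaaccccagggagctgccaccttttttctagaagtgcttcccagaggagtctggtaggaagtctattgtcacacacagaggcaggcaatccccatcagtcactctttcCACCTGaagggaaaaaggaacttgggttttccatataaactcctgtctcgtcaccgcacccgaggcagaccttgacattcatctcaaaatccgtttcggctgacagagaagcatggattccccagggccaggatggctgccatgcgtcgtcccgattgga

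The first Ptpre window holds no match. The other windows hold 1 match each, CAGGTG in window 2 and its reverse complement CACCTG in window 3, so both are 1 form of the E-box read on opposite strands. Of all 32851 promoter windows, 72.3% hold any E-box core as capitalised above, and 20.2% hold the form found at Ptpre on either strand. Windows were found for 32 of the 40 phosphatase genes, 47 in all. Of the 47, 29 (61.7%) hold any E-box core and 15 (31.9%) the form found at Ptpre. Another form that the same search covers, the palindrome CAGCTG, is in 2 of the 47 windows (4.26%) and in 16.3% of all windows. Among the 13 measured phosphatase genes with a window, 3 hold the form found at Ptpre (Ptpre itself, Dusp14 and Ptpn6), against 20.3% of the 4572 measured genes with a window. Of these 3 genes, Dusp14 and Ptpn6 lay within 2-fold (values below). These matches are letters in a window and no measure of binding.

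Of the remaining receptor-type genes, Ptpra was the only one measured. It encodes phosphatase alpha, the closest relative of Ptpre, which removes the inhibitory phosphate of Src-family kinases. Its intensity was 5.21 on the control array and 6.65 with E47-ER, a difference of 0.37, and 15.4% of all measured genes had a larger one. The difference of Ptpra was thus within the common range of the arrays. That of Ptpre, taken at face value, was not, though Ptpre was called measured through its value on the E47-ER array. With 2 measured genes, the median of the class, 1.45, is only the midpoint of Ptpra and Ptpre. For Ptprc, the gene of CD45, the table holds no value on either array, which is so for 59 named probes and 171 probes in all. The CD45-associated Ptprcap was measured at 20.1 and 17.2, a difference of -0.21.

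The other 9 receptor-type genes, Ptprb, Ptprg, Ptprj, Ptprk, Ptprm, Ptprn, Ptprr, Ptpru and Ptprz1, were under the level limit on both arrays, with intensities between 0.00230 and 0.852. Ptprb had 0.00230 on the control array and 0.0652 with E47-ER. Ptprg had 0.00444 and 0.0773. These are large ratios of values near 0, and in the dimmest of 20 level bins, which holds both probes, the robust SD of the log2 difference over all probes was 2.33. They were therefore not called.

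None of the 7 measured non-receptor genes reached 1.5-fold. Across all measured genes only 6.65% did so in either direction, so this count does not set the class apart. The 7 differences lay between -0.41 and 0.09, with a median of -0.08 beside 0.11 for all measured genes. All 7 lay below the median of all measured genes as scaled here, but Ptpn4 (0.06) lay above it (0.03 and 0.02) after quantile normalization and after loess on level. The lowest was Ptpn12, the gene of PTP-PEST, which acts on focal adhesion and cytoskeletal proteins. It had 4.81 on the control array and 3.59 with E47-ER, a difference of -0.41.

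Ptpn9, the gene of MEG2, an enzyme of secretory vesicles, had 8.12 and 6.10, a difference of -0.40. Of all measured genes, 2.91% lay below Ptpn12 and 3.15% below Ptpn9. Ptpn22, which dampens Lck and Zap70 in T cells, had 2.53 and 2.14 (-0.22). Both arrays gave close values for the remaining 4, each within 1 probe SD of equality.

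Ptpn6, the gene of SHP-1, an inhibitor of antigen and cytokine receptor signalling, had 9.20 and 8.64 (-0.08). Ptpn2, the gene of the T cell phosphatase that acts on JAK kinases and STAT factors, had 12.3 and 13.03 (0.09). Ptpn1, its close relative PTP1B, had 3.10 and 3.21 (0.07). Ptpn4, a FERM and PDZ domain enzyme, had 1.78 and 1.88 (0.09). With the arrays' 75th percentiles set equal, the differences of Ptpn1, Ptpn2 and Ptpn4 were -0.04, -0.02 and -0.02, so their sign depends on the scaling. The other 6 non-receptor genes, Ptpn5, Ptpn11, Ptpn13, Ptpn18, Ptpn20 and Ptpn21, were under the limit on both arrays, between 0.0459 and 0.571. Ptpn11, the gene of SHP-2, is among them.

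**Figure D2:**
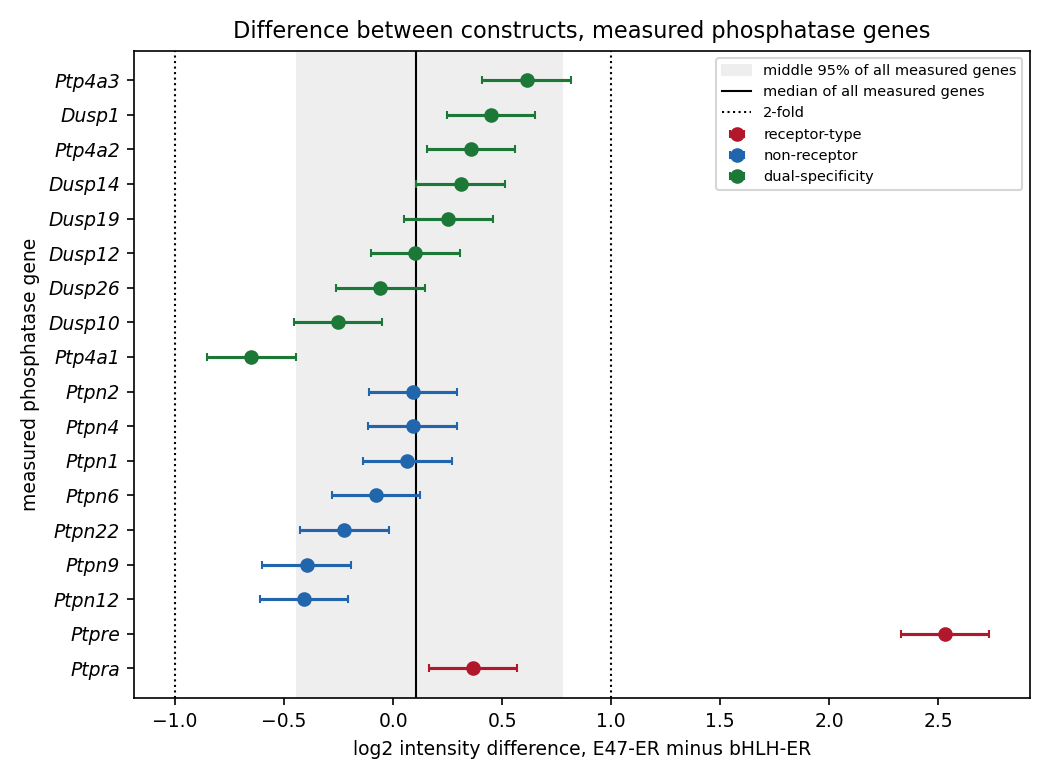
Log2 intensity difference (E47-ER minus bHLH-ER) of the 18 measured phosphatase genes by class; bars are 1 pooled SD between probes of one gene (0.20), the grey band is the middle 95% of all measured genes (-0.44 to 0.77), the solid line their median (0.11) and dotted lines 2-fold. Ptpre at 2.53 and Ptp4a1 at -0.65 are the points outside the band.

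The dual-specificity genes had differences from -0.65 to 0.61, and none of the 9 measured was called at 2-fold. Only 1.62% of all measured genes were called in either direction. Their median was 0.25, and 5 of 9 lay above the median of all measured genes. The 3 Ptp4a genes, whose proteins are closely related, held both ends of this range. The SD of the differences was 0.67 over these 3 genes and 0.26 over the 6 Dusp genes, beside 0.22 over the 7 non-receptor genes and 0.32 over all measured genes; no test was made between classes.

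Ptp4a1 (Entrez gene 19243), the gene of PRL-1, had 26.7 on the control array and 16.9 with E47-ER, a difference of -0.65 or 1.57-fold lower. Of all measured genes, 1.01% had a lower difference. Ptp4a3 (Entrez gene 19245), the gene of PRL-3, had 4.77 and 7.22, a difference of 0.61 or 1.53-fold higher, and 4.66% of measured genes had a larger one. Ptp4a2, the gene of PRL-2, had 36.4 and 46.2, a difference of 0.36. Ptp4a1 was thus dimmer and its 2 relatives brighter with E47-ER, and each of the 3 differences exceeded the probe SD of 0.20. Of all measured genes, only 54.5% lay within 1 probe SD of equality, so exceeding it was common. Besides Ptpre, only the phosphatase genes Ptp4a1 and Ptp4a3 reached 1.5-fold, a size that 5.41% of all measured genes reached upward and 1.24% downward. Under the 75th percentile scaling, quantile normalization and loess, Ptp4a3 lay between 0.50 and 0.52, under 1.5-fold. Whether the probes tell the Ptp4a transcripts apart was not tested.

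Among the Dusp genes, 6 of 12 were measured, and none reached 1.5-fold. Only 6.65% of all measured genes did so in either direction, so this count does not set them apart. Dusp1, an inducible nuclear phosphatase of MAP kinases, had 2.06 on the control array and 2.78 with E47-ER, a difference of 0.45. Dusp14, which acts on MAP kinase pathways in T cells, had 3.76 and 4.61 (0.31). Dusp19, an atypical member linked to JNK signalling, had 3.81 and 4.50 (0.25). As scaled here, these 3 were brighter with E47-ER by more than 1 probe SD and lay above the median of all measured genes. Of all measured genes, 54.5% lay within 1 probe SD of equality. With equal 75th percentiles, Dusp14 (0.201) and Dusp19 (0.15) were under the SD of 0.203. Dusp19 was also under it after quantile normalization and after loess (0.17 in both).

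Dusp10, which acts on the stress kinases JNK and p38, had 2.49 and 2.07, a difference of -0.25. Dusp12, an atypical member with a zinc-binding region, had 8.89 and 9.45 (0.10), which was slightly below 0 under the 3 other scalings. Dusp26, another atypical member, had 1.14 and 1.08 (-0.06) and lay just inside the level limit. Just outside it lay Ptprk, at 0.810 and 0.852, and Dusp7, at 0.829 and 0.771. The MAP kinase phosphatase genes Dusp1 and Dusp10 were thus measured, while Dusp6, which acts on ERK in the cytosol, was under the limit. The 6 Dusp genes under it on both arrays, Dusp6, Dusp7, Dusp8, Dusp9, Dusp13 and Dusp15, had intensities between 0.0639 and 0.829.

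**Figure D3:**
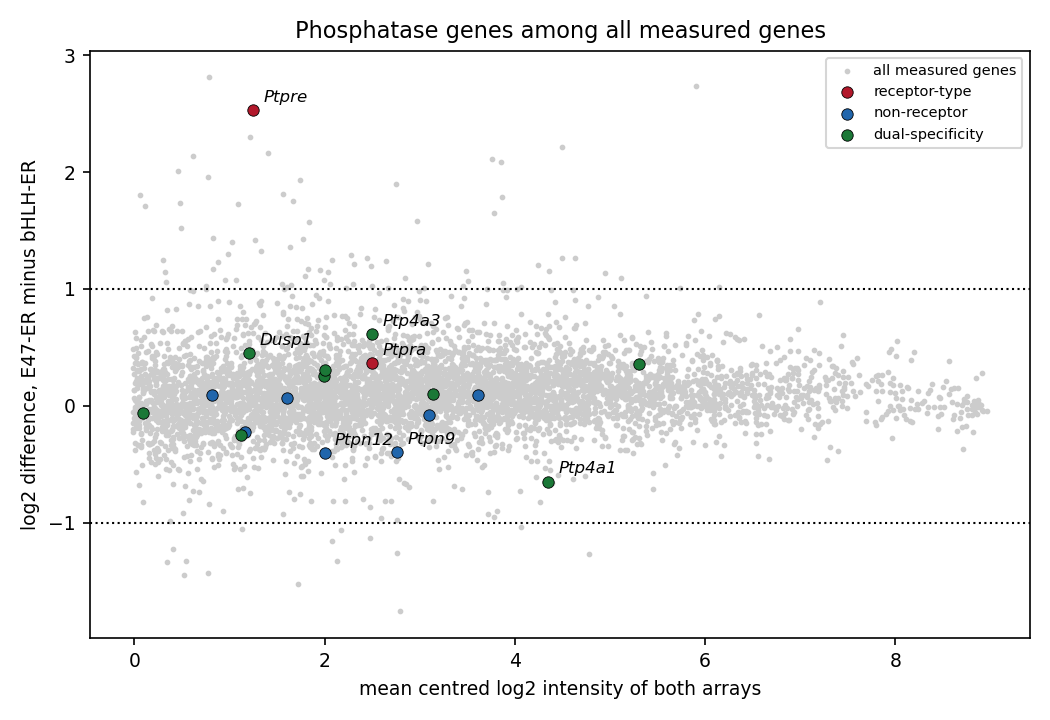
Log2 difference (E47-ER minus bHLH-ER) against mean centred log2 intensity for all 5563 measured genes (grey) and the 18 measured phosphatase genes, coloured by class; dotted lines mark 2-fold. Ptpre, called measured through its value on the E47-ER array, is at 2.53, and 2 of all measured genes had a larger difference. The other 17 phosphatase genes lie within the cloud or at its lower edge (Ptp4a1).

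Over the 18 measured phosphatase genes, 11 differences were positive and 7 negative, where 66.7% of all measured genes were positive. With equal 75th percentiles the counts were 7 and 11, and 49.7% of all measured genes were positive. As reported, the median of 0.09 was close to the 0.11 of all measured genes. Leaving out Ptpre, the median over 17 was 0.09 and the differences had an SD of 0.34, beside 0.32 over all measured genes. Of the 18, 6 lay within 1 probe SD of equality, which was so for 54.5% of all measured genes. These counts hold for measured members and not for the 21 under the limit.

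Genes that act beside the phosphatases were mostly within 2-fold as well, as were measured genes in general. Of all 5563 measured genes, 1.62% were called in either direction, so few calls would be found in any short list. In a list of other phosphatases (the CDC25, myotubularin and related families, with the aspartate-based EYA genes), 14 of 21 genes with a probe were measured and none was called. Their median was 0.07, and the largest difference was 0.31 for Mtmr12, a myotubularin family member without catalytic activity. Cdc25a, Cdc25b and Cdc25c, which activate cyclin-dependent kinases, had differences of 0.21, 0.24 and -0.06 (named after their values were seen).

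The list of the MAP kinase cascade holds the MAP kinases, which many Dusp enzymes act on. It also holds the kinases that activate them and the Spry and Spred genes. Of the 18 genes with a probe, 9 were measured, and none was called. Of the 9 differences 7 were positive (66.7% of all measured genes were), or 5 with equal 75th percentiles, and the median was 0.17. The largest was that of Mapk14, the p38 alpha kinase, at 10.2 and 15.6 (0.63). The JNK genes Mapk8 and Mapk9 stood at 0.49 and 0.29 (named after their values were seen). The lowest was Map2k1, an ERK-activating kinase, at -0.11 (also named after its values were seen).

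Of the kinases that tyrosine phosphatases act on, 6 of 13 with a probe were measured and none was called, with 2 positive and 4 negative differences and a median of -0.14. Flt3, a cytokine receptor kinase of early progenitors, had the largest, at 1.37 and 0.846 (-0.68). Its E47-ER value was under the level limit, so Flt3 was called measured through its control value. Fyn, the Src-family kinase of T cells, had 11.3 and 17.0 (0.60; named after its values were seen). In the list of receptors and adaptors that bind SHP-1, SHP-2 or PEST-family enzymes, 3 of 12 with a probe were measured. Sit1, a transmembrane adaptor of T cells that binds SHP-2, was called higher, at 2.85 and 6.72, a difference of 1.25 or 2.38-fold. The other 2 were Pecam1 (-0.52), an adhesion receptor that binds SHP-2, and Ptprcap, which is on this list as a partner of CD45 and is also a member by the rule above (both given to complete the count).

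**Figure D4:**
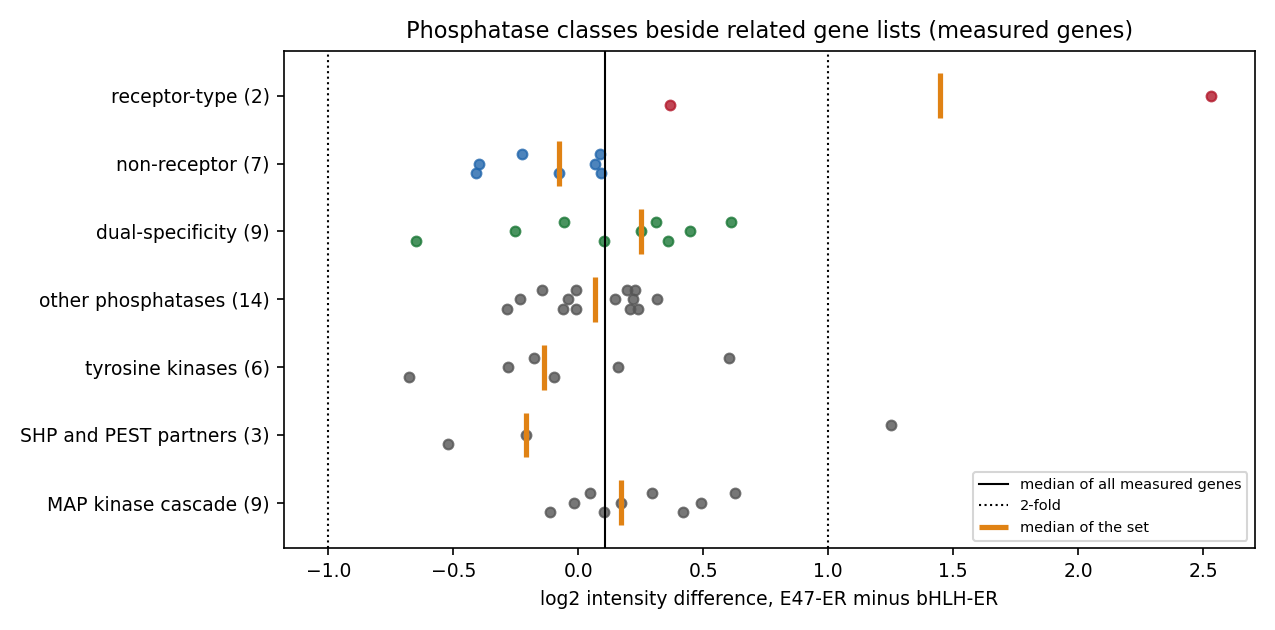
Log2 difference (E47-ER minus bHLH-ER) of each measured gene in the 3 phosphatase classes and 4 related lists, with the number of measured genes in brackets; orange bars are set medians, the solid line is the median of all measured genes (0.11) and dotted lines mark 2-fold. Ptpre (2.53) and Sit1 (1.25) are the points past 2-fold.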

How the data were processed

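Per the labels, RNA from 1 culture per construct was hybridised to 1 Cy3 array each; groups came from the sample titles, since both descriptions name the E47 fusion. The intensities deposited by the authors are linear, partly below 0 and have medians of 0.950 (control) and 0.939, which shows background subtraction and scaling before deposit, by a method not stated in the labels. No detection calls are used. Of 20289 probes, 19621 were positive on both arrays and the other 668 were not used. Symbols came from the platform annotation; updating them by Entrez gene ID in RefSeq GRCm38.p6 changed none, 10349 probes had 1 symbol and 9940 are unnamed here. Log2 values were centred on each array's median, and probes of a gene were averaged. With 1 array per group no p-value or SE exists, and the number of arrays limits precision.

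The members and lists were chosen with earlier results of these data known. Every measured member is named, both intensities are given from 1.5-fold up, and list members are named at 2-fold or as the list's largest difference; others are marked as named after their values were seen or given to complete a count. Alternatives were scaling (75th percentile, quantile), loess (span 0.3), the level limit, an offset of 0.5, the brightest probe, platform symbols and a 1.5-fold rule. Python 3.11.15, pandas 2.3.3 and statsmodels 0.14.6 were used.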

Additional observations from a re-analysis of the deposited data

How the results depend on the processing

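Ptpre stayed past 2-fold and higher under each scaling, loess, offset and centring tried, between 2.07 (offset of 0.5 before log2) and 2.53. The level limit decides which genes are counted: with it at the 75th percentile 6 phosphatase genes were left, without Ptpre, and 0 were called higher, and with no limit 3 were (Ptprb, Ptpre, Ptprg). The 1.5-fold rule gave 2 higher and 1 lower. The receptor-type median was 0.0864 over 7 genes with the limit at the 25th percentile, 0.23 over 11 with none and 1.20 with the offset; at the 75th percentile no receptor-type gene was left and there is no value. The non-receptor median ran from -0.19 to 0.04, above 0 where dimmer genes were let in, and the dual-specificity median from 0.09 to 0.25. Of 178 single-gene values under the alternatives, 177 moved by less than the probe SD, the exception being Ptpre with the offset. Much of this count was fixed in advance. The level limits, brightest probe and platform symbols cannot change a single-gene value here. Equal 75th percentiles and centring on the median of measured genes shift all genes alike, by less than the probe SD. Dusp12, Ptpn1, Ptpn2 and Ptpn4 changed sign under at least 1 scaling. Setting the 75th percentiles equal shifted the median of all measured genes from 0.11 to -0.0023 and its calls from 75 higher and 15 lower to 52 and 24. Without a level limit, 496 genes were called higher and 420 lower; at the 25th percentile the counts were 129 and 53, at the 75th percentile 25 and 4, and at 1.5-fold 301 and 69. Quantile normalization gave 55 and 19, loess 56 and 20 and the offset 52 and 10. Centring on the median of measured genes, added after seeing the data, gave 52 and 24 and called the same single phosphatase gene, Ptpre. The brightest probe and platform symbols changed no value. The cause of these shifts was not tested beyond which genes each setting admits. No paired analysis was possible because each group has 1 array. Leaving out a replicate was not possible either.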
